A study of Homo sapiens with 54 samples.

Results

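Irradiation was added to 5-FU in 5-FU-sensitive HCT-116 cells, a human colorectal cancer line, and its effect on the transcriptome was measured by RNAseq. The comparison used 6 of the 54 libraries of the series, namely the 3 replicates of sensitive HCT-116 under 5-FU plus irradiation and the 3 replicates under 5-FU alone, which were chosen by their labels. Both groups received 10 µM 5-FU for 24 h. The irradiated cells then received X-rays at the dose called DL50, the median lethal dose of the line, which was 1.7 Gy for HCT-116. The other libraries used beside them were sensitive HCT-116 under 10 µM uracil (3 libraries), the 5-FU-resistant form of the line under the same 3 treatments (9 libraries), and sensitive DLD-1 and HT-29 cells under the same 3 treatments (18 libraries). The resistant cells had been selected by growth in 5-FU and received the same 5-FU treatment. Each other line was irradiated at its own DL50, so doses differed between lines, while the resistant cells were treated under the same conditions as the sensitive ones. The medium was changed before irradiation. Whether the 5-FU plates also had their medium changed, and the time from irradiation to harvest, are not given in the sources used here. Irradiation, a medium change and any longer time since 5-FU therefore cannot be told apart. The question addressed was whether irradiation moved gene expression beyond 5-FU alone.

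5-FU is a pyrimidine analogue whose metabolites block thymidylate synthase and enter RNA and DNA, while X-rays break DNA. Both kinds of damage activate checkpoint kinases and lead to induction of the cyclin-dependent kinase inhibitor p21 (CDKN1A) and other arrest genes, and p21 keeps the genes for DNA replication and mitosis repressed through RB and the DREAM repressor complex. Transcripts of mitotic genes peak late in the cell cycle and are scarce in cells that have stopped dividing. Many promoters of such genes carry the cell cycle genes homology region (CHR), with the letters TTTGAA or TTTAAA, often downstream of CCAAT boxes bound by NF-Y.

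Summed estimated counts ranged from 51691296 to 78905042 under 5-FU and from 39527341 to 58145816 under 5-FU plus irradiation. The irradiated libraries differed more among themselves, with chi-square values over their degrees of freedom from 5.78 to 12.6 for pairs of replicates against 2.86 to 3.74 under 5-FU alone. Pairs of sensitive HCT-116 libraries under uracil gave 6.41 to 13.8. Mitochondrially encoded genes took 6.25 to 6.38% of the counts under 5-FU alone and 5.59 to 6.84% under 5-FU plus irradiation. Of 64 genes that marked HCT-116 among the sensitive lines, 64 were at 1 TPM or more in every library of both groups, and of 20 DLD-1 and 12 HT-29 markers 0 were. The epithelial keratins KRT8 and KRT19 were between 1475 and 1943 TPM in all 6 libraries.

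With irradiation added, a set of cell division genes was moderately lower and almost nothing was higher. Of 22975 genes tested with edgeR's quasi-likelihood test, 211 fell at a p of 0.01 or less after Benjamini-Hochberg adjustment, which was 0.918% of the genes, and 2 rose, which was 0.00871%. No gene passed that threshold together with a 2-fold change. The genes that fell ranged in log2 fold change from −0.18 to −0.93, with a median of −0.44, which is 73.6% of the level under 5-FU alone. The median over all genes tested was −0.004. In 207 of the 211 genes, TPM (a transcript level corrected for length and depth) was lower in all 3 irradiated libraries than in all 3 libraries with 5-FU alone, an order found in 7.15% of all genes tested. The calls came from these same libraries, so this order is not separate support for them. In bulk RNA, fewer cells in a phase of the cell cycle and less RNA per cell cannot be told apart.

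Of the 211 genes, 48 were on a list of 54 genes of G2, mitosis and cytokinesis, 31 on a list of 48 genes of DNA replication and the G1/S transition, and 12 on a list of 40 genes of DNA break signalling and repair. The remaining genes comprised the interferon-stimulated gene OAS3, the serine synthesis gene PHGDH, and 118 genes on no list. All lists were chosen with earlier results of these data known.

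**Figure D1:**
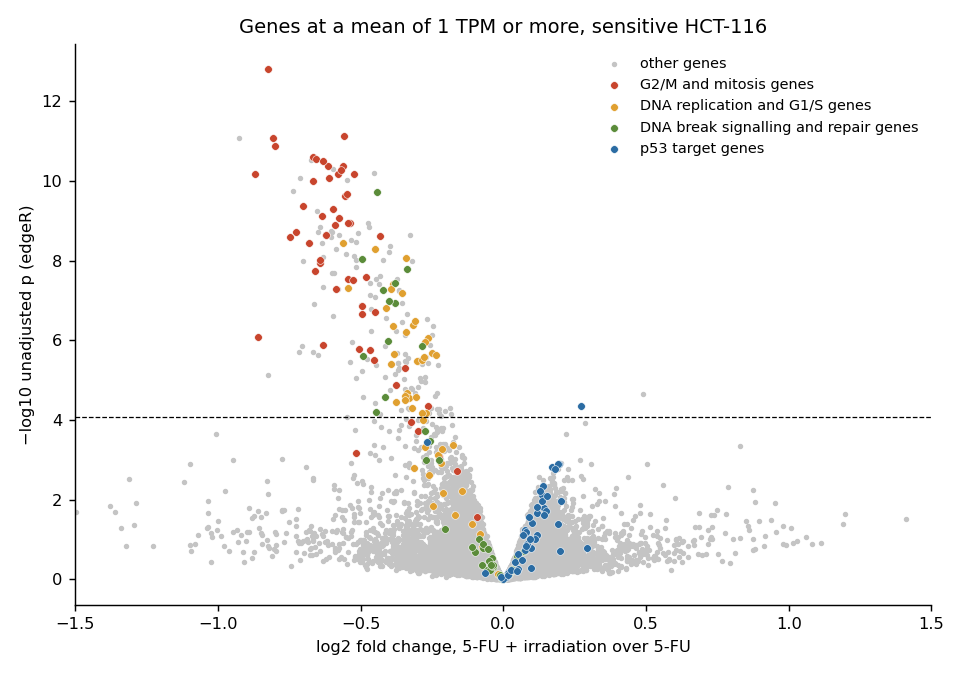
Log2 fold change (x axis) against −log10 of the unadjusted p (y axis, edgeR) for irradiation added to 5-FU in sensitive HCT-116. Each point is a gene with a mean of at least 1 TPM, the dashed line marks the p at which the adjusted p reaches 0.01, and colours mark genes of 4 lists (15868 of 15880 such genes lie within the plotted range). Points above the line lie almost all to the left of 0, and the G2/M and replication genes make up much of that group, while the p53 target genes lie mostly just to the right of 0, below the line.

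The mitotic genes carried the largest decreases. MKI67, which codes for the proliferation antigen Ki-67 (chr10:128096659-128126423, GRCh38, minus strand), stood at 23.2, 22.2 and 22.2 TPM under 5-FU and at 10.6, 12.7 and 12.2 TPM after irradiation was added. The irradiated libraries were all lower with no overlap, and the log2 fold change was −0.93 ± 0.07 (SE, n = 3 against 3, edgeR adjusted p = 4.87e-08), the largest decrease among the called genes. MKI67 was on none of the lists.

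The polo-like kinase PLK1 (chr16:23677656-23690367, plus strand), which drives entry into and passage through mitosis, was at 29.6, 31.2 and 30.5 TPM under 5-FU and at 16.4, 18.6 and 18.6 TPM with irradiation. Every irradiated library was below every 5-FU library, and the log2 fold change was −0.81 ± 0.06 (SE, edgeR adjusted p = 4.87e-08). The kinesin KIF14 (chr1:200551497-200620751, minus strand), a motor of cytokinesis, had the smallest p of all genes. Its level went from 4.31, 4.12 and 4.35 TPM to 2.51, 2.47 and 2.22 TPM, again without overlap, with a log2 fold change of −0.82 ± 0.05 (SE, edgeR adjusted p = 3.61e-09). Cyclin B1 (CCNB1, chr5:69167135-69178245, plus strand), the partner of CDK1 at mitotic entry, was at 76.5, 80.3 and 86 TPM under 5-FU and at 55.5, 51.1 and 51.7 TPM with irradiation. This abundant gene fell less than PLK1 or KIF14, with a log2 fold change of −0.59 ± 0.06 (SE, edgeR adjusted p = 8.76e-07).

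**Figure D2:**
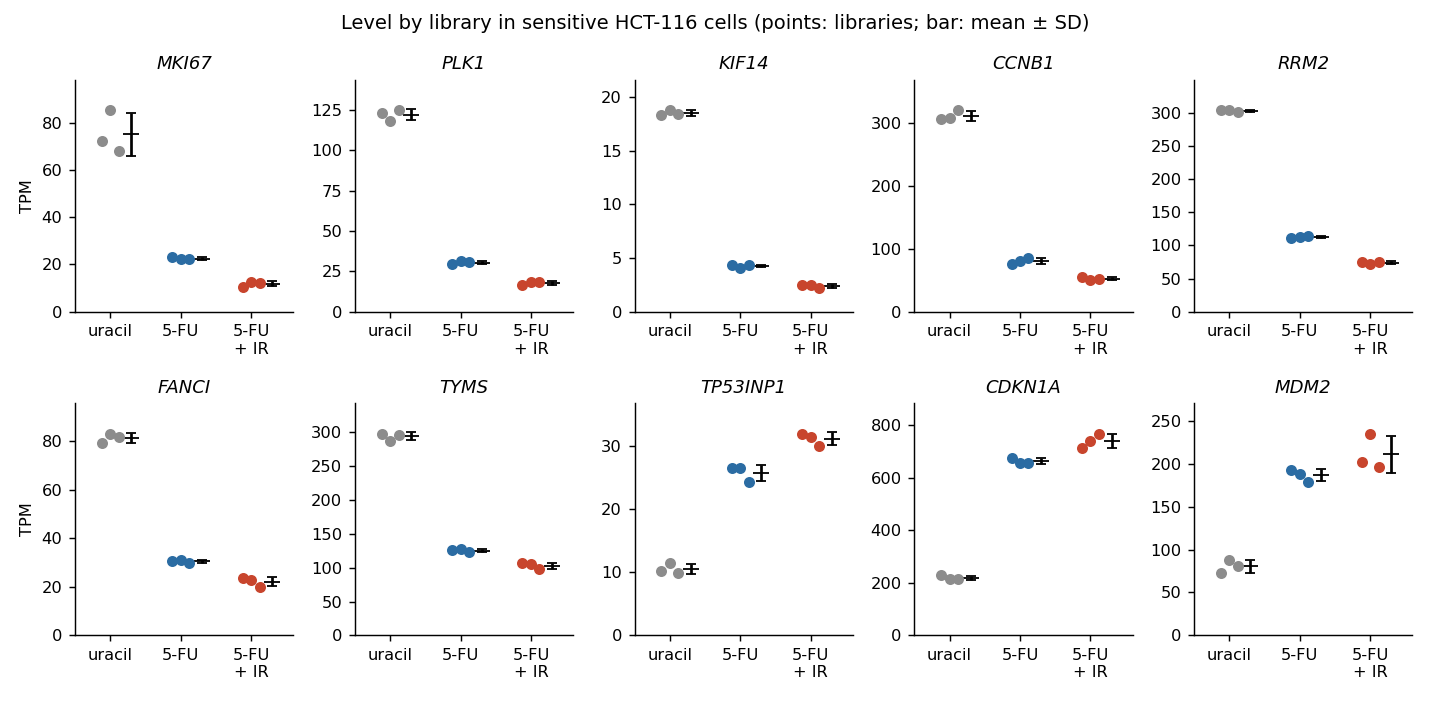
TPM (y axis, linear, from 0) of 10 genes in sensitive HCT-116 cells under uracil, 5-FU and 5-FU plus irradiation. Points are libraries and bars are means ± SD of 3 libraries. MKI67, PLK1, KIF14, CCNB1, RRM2, FANCI and TYMS step down from uracil to 5-FU and again with irradiation, and CDKN1A, MDM2 and TP53INP1 stand far above uracil under 5-FU and change little further.

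Other called genes moved alike, many of them genes of chromosome attachment, the spindle or cytokinesis. The kinetochore motor CENPE, at 4.7, 3.72 and 4.15 TPM under 5-FU, was at 1.85, 2.05 and 1.98 TPM with irradiation. KIF20A, a kinesin of the central spindle, went from 11.8, 12.2 and 11.3 TPM to 6.71, 6.89 and 6.88 TPM. The helicase PIF1 went from 5.67, 5.96 and 4.46 TPM to 3.34, 2.49 and 3.22 TPM. The log2 fold changes of these genes were −0.87, −0.80 and −0.86, and none of their libraries overlapped between groups. The bipolar spindle motor KIF11 (−0.56), the cytokinetic ring protein ANLN (−0.67), the checkpoint kinase BUB1 (−0.65), the mitotic protein GTSE1 (−0.75), the chromosomal passenger CDCA8 (−0.74), the spindle pole protein ASPM (−0.73), the depolymerizing kinesin KIF18B (−0.71), the kinetochore subunit SPC25 (−0.70), the kinetochore protein CENPF (−0.70), RIBC2 (−0.72) and the CDK inhibitor CDKN2C (−0.71) also fell, each with all irradiated libraries below the others. CENPF varied most among these, with 8.61, 14 and 9.27 TPM after irradiation against 18.8, 17.1 and 16.3 TPM under 5-FU. AC099850.3, a gene given only by its clone name, fell by 0.82 on the log2 scale, and its call was lost in 5 of the alternative settings.

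Of the 54 G2/M and mitosis genes, 48 fell, 0 rose, and in 54 of 54 all irradiated libraries were below all 5-FU libraries. Over all genes tested, 0.918% fell and 7.15% had that order. The list was chosen with earlier results of these data known, so its counts are a description and not separate support. The median log2 fold change of the 54 genes was −0.57, or 67.3% of the level with 5-FU alone. The 6 members that did not pass the test were CDC25B (−0.09), CDC25C (−0.51), MAD2L1 (−0.30), KIF18A (−0.32), CKAP2 (−0.16) and KNSTRN (−0.22). CDC25C was the least abundant of these, at 2.7 to 3.01 TPM under 5-FU. The decreases included the mitotic transcription factor FOXM1, at 17.2, 18.1 and 17.9 TPM against 12.8, 11.4 and 11.5 TPM (log2 fold change −0.60), and, outside the list, its partner in the late cell cycle programme MYBL2, at 25.7, 25.4 and 25.1 TPM against 18, 17.7 and 18.3 TPM (−0.52). Both factors had compact replicates with a gap between groups.

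Because TPM sums over transcripts, the main transcripts of the leading genes were compared too. The 2 main transcripts of MKI67 stood at 53.2% and 52.2% of their level under 5-FU alone, the main transcript of PLK1 at 55.1%, that of KIF20A at 58.2% and that of KIF11 at 68.2%. For KIF14 the values were 59.9% and 48.8%, and for CCNB1 65.2% and 70.4%. No main transcript of these 6 genes therefore moved against its gene. Kallisto divides shared reads among transcripts by estimate, so differences between transcripts of 1 gene are uncertain.

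The genes that fell were also counted by protein complex, in families that were grouped after the values had been seen. All 8 condensin genes, which code for the rings that compact chromosomes, fell, with a median log2 fold change of −0.38, and so did 4 of 4 genes of the chromosomal passenger complex (AURKB, INCENP, BIRC5 and CDCA8), with a median of −0.62. Aurora kinase B (AURKB) went from 42.3, 42.4 and 45.6 TPM to 28.9, 25.9 and 26.1 TPM. Of 13 outer kinetochore genes 8 fell, with a median of −0.45, and of 22 tested centromere protein genes 10 fell, with a median of −0.32. Kinesins moved unequally. Of 41 tested kinesin genes 12 fell, and the family's median was −0.06. Of 5 cohesin genes, whose rings hold sister chromatids together, SMC1A alone fell, with a log2 fold change of −0.25, and the family's median was −0.10. Separase (ESPL1), the protease that opens cohesin at anaphase, went from 8.22, 8.19 and 7.84 TPM to 5.17, 5.29 and 5.74 TPM (log2 fold change −0.60).

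A few abundant chromatin and cytoskeleton genes outside the lists fell with them, and they were also picked after their values had been seen. The high mobility group gene HMGB2 went from 107, 111 and 108 TPM to 75.5, 68.2 and 64.2 TPM, a log2 fold change of −0.67 ± 0.05 (SE, edgeR adjusted p = 7.96e-08). Of 10 high mobility group genes, HMGB2 and HMGN2 fell, and the median was 0.01. Lamin B1 (LMNB1) went from 44.9, 48.3 and 41.7 TPM to 34.6, 31.6 and 31.8 TPM (−0.47), and with TMPO made up the 2 of 7 lamina genes that fell. Of 17 tested alpha and beta tubulin genes, TUBA1B alone fell, from 493, 510 and 518 TPM to 437, 409 and 431 TPM (−0.26). The histone methyltransferase EZH2 (−0.27) and the maintenance DNA methyltransferase DNMT1 (−0.27) fell by similar amounts. Values of FAM72A and FAM72D, which are near-identical copies, and of HMGB1P6, a processed pseudogene, were also called lower and are uncertain, since reads can be shared with their copies.

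**Figure D3:**
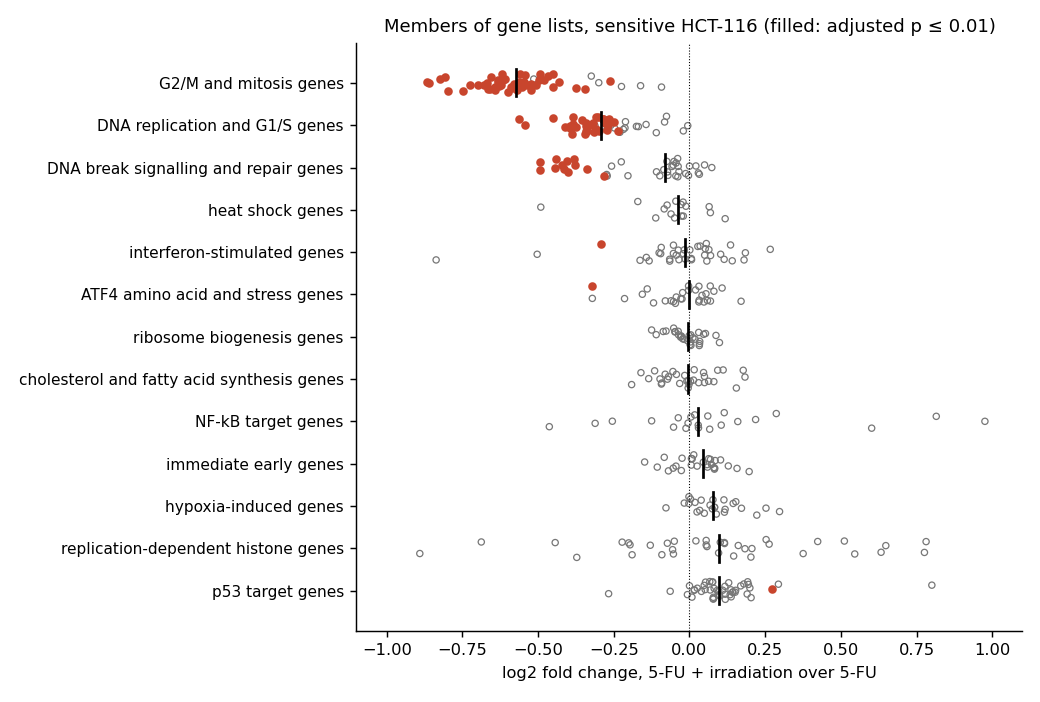
Log2 fold change (x axis) of each tested member of 13 gene lists (rows) for irradiation added to 5-FU in sensitive HCT-116. Filled points passed an adjusted p of 0.01, open points did not, and the bar is the list's median. Filled points are concentrated in the G2/M, replication and repair lists, all on the negative side, while the medians of the other lists lie between −0.04 and 0.10.

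Promoters of 5 of the mitotic genes that fell are shown to let the CHR and CCAAT words be seen in place. They were chosen after the values and letters had been seen, among genes whose window held no annotated exon, 4 with a CHR word and KIF14 without one. The sequences are from RefSeq, GRCh38.p14, each covering the 150 bases before an annotated transcript start, 5′ to 3′ on the gene's strand. Capitals mark TTTGAA or TTTAAA and CCAAT, with the reverse complements TTCAAA and ATTGG. In MKI67 the last A of a TTTGAA is also the first letter of an ATTGG.
MKI67, chr10:128126424-128126573, minus strand: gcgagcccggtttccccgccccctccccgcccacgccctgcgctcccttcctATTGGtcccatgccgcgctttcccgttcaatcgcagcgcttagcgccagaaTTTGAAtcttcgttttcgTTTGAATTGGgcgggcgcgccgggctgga
KIF20A, chr5:138178962-138179111, plus strand: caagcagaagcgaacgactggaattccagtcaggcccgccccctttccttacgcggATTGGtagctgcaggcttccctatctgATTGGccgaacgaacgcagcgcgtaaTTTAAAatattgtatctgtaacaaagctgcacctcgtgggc
CDC20, chr1:43358831-43358980, plus strand: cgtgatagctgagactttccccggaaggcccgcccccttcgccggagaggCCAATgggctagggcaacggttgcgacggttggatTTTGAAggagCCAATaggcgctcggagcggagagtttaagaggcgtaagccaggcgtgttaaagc
KIF11, chr10:92592980-92593129, plus strand: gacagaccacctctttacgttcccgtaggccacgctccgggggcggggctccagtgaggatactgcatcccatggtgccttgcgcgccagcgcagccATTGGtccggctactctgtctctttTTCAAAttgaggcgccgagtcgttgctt
KIF14, chr1:200620752-200620901, minus strand: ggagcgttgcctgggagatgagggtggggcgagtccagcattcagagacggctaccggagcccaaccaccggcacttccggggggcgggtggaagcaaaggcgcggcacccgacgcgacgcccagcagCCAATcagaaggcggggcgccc
The windows of MKI67, CDC20 and KIF14 lay outside annotated genes, directly upstream of the first base of the gene in GENCODE 44. Those of KIF20A and KIF11 lay within the annotated span of their own gene, in no annotated exon. In MKI67 the CHR words began 29 and 47 bases before the start, in KIF20A 41 bases, in CDC20 65 bases and in KIF11, on the other strand, 28 bases before it. KIF14, the gene with the smallest p, had no CHR word in the 150 bases printed and a CCAAT beginning 22 bases before the start, while TTTAAA began 198 bases before the start and TTCAAA lay just after it, both inside the longer window in which words were counted. CDC20, the activator of the anaphase-promoting complex, fell from 67.4, 65.9 and 64.1 TPM to 44.6, 42.8 and 44.3 TPM (log2 fold change −0.63).

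Over the windows from 250 bases before to 50 bases after annotated starts, TTTGAA on either strand was found in 35% of the 226 windows of genes that fell (172 of 211 genes matched) and in 55.7% of the 61 windows of the G2/M genes, beside 11% of the 18451 windows of all genes tested (12897 of 22975 matched). The shares for TTTAAA were 18.1%, 34.4% and 9.04%. For CCAAT, a word added after seeing the data, they were 61.5%, 72.1% and 34.3%. Windows holding both TTTGAA and CCAAT made up 26.1%, 44.3% and 4.41%. In the windows of the replication genes TTTGAA was found in 3.7% and CCAAT in 61.1%. In those of the repair genes the shares were 7.84% and 47.1%, and in those of the p53 targets, of which 0 fell, they were 14% and 54%. CCAAT was thus found in 47.1% or more of the windows of each of these lists, the p53 targets included. A role of either word in the changes was not tested. Words can overlap, as in MKI67, and a match describes letters in a window and is not a bound site.

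Genes of DNA replication fell less than the mitotic genes. Of 48 replication and G1/S genes 31 fell and 0 rose, with a median log2 fold change of −0.29, or 81.6% of the level with 5-FU alone. In 38 of them all irradiated libraries were below the others. Over all genes tested, 0.918% fell and 7.15% had that order. This count of 31 was 17 without replicate 2 and 20 without replicate 3 of the irradiated libraries. RRM2, the regulated subunit of ribonucleotide reductase, which makes deoxynucleotides, was at 111, 113 and 114 TPM under 5-FU and at 75, 71.7 and 75.6 TPM with irradiation. Its replicates were tight in both groups, and its log2 fold change was −0.56 ± 0.06 (SE, edgeR adjusted p = 1.59e-06), the lowest value of the list. CDC45, a subunit of the active replication helicase, went from 17.5, 15.7 and 17.3 TPM to 11.8, 11.3 and 10.8 TPM (−0.54). The checkpoint mediator CLSPN went from 8.91, 9.51 and 10.1 TPM to 6.95, 6.41 and 7.09 TPM (−0.45). Of the 6 genes of the MCM2 to MCM7 helicase 5 fell, with MCM2 at −0.39, MCM5 at −0.39 and MCM7 at −0.34, while MCM6 (−0.18, edgeR adjusted p = 0.0381) did not pass. Thymidine kinase TK1 (−0.41), the transcription factor E2F1 (−0.34) and the methylation reader UHRF1 (−0.27) fell as well.

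Thymidylate synthase (TYMS, chr18:657653-673578, plus strand), the enzyme that 5-FU blocks, was at 126, 127 and 123 TPM under 5-FU and at 107, 105 and 98.3 TPM with irradiation. The 2 groups did not overlap, and the log2 fold change was −0.28 ± 0.04 (SE, edgeR adjusted p = 0.000418). Several genes of the same list hardly moved. PCNA, the sliding clamp of the replication fork and also a p53 target, was at 215, 213 and 210 TPM against 210, 197 and 201 TPM (log2 fold change −0.08, edgeR adjusted p = 0.643). Cyclin E1 (CCNE1), which drives entry into S phase, was at 41.2, 42.4 and 40.5 TPM against 42.8, 41.2 and 40.2 TPM with overlapping libraries (−0.02), and the S-phase factor TIPIN had a log2 fold change of −0.01. None of the 37 tested replication-dependent histone genes passed the test in either direction, with a median of 0.10. These transcripts largely lack poly(A) tails, and the libraries were poly(A)-selected.

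In the DNA repair list fewer genes fell. Of 40 genes 12 fell and 0 rose, with a median log2 fold change of −0.08, where 0.918% of all genes tested fell. FANCI, of the Fanconi anaemia complex that repairs DNA crosslinks (chr15:89243945-89317261, plus strand), was at 30.8, 30.9 and 29.7 TPM under 5-FU and at 23.5, 22.7 and 20 TPM with irradiation, a log2 fold change of −0.44 ± 0.04 (SE, edgeR adjusted p = 1.89e-07). The genes RAD54L (−0.49), BRCA1 (−0.38), BRCA2 (−0.44), BARD1 (−0.41), BRIP1 (−0.41) and EXO1 (−0.38), the end-joining polymerase POLQ (−0.49), FANCA (−0.40) and FANCD2 (−0.34), and the break markers H2AFX (−0.42) and MDC1 (−0.28) also fell. BRCA1 went from 11.1, 10.3 and 11.9 TPM to 8.49, 7.62 and 7.43 TPM, and H2AFX from 65.6, 60.7 and 58.7 TPM to 48.8, 45 and 47.4 TPM, both without overlap. The break-sensing kinases ATM and ATR had log2 fold changes of −0.06 and 0.07. NBN (0.03), MRE11 (−0.05), RAD50 (0.05), TP53BP1 (−0.04), CHEK2 (−0.08), XRCC5 (−0.01), XRCC6 (−0.05) and LIG4 (0.02) lay within 0.1 of 0. ATM was at 26.3, 22.5 and 21.9 TPM against 17.5, 24.2 and 23.9 TPM, and its libraries overlapped.

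The p53 target genes stayed near their level under 5-FU. Of 47 tested members TP53INP1 rose and 0 fell, with a median log2 fold change of 0.10, or 107%, beside a median of −0.004 over all genes. The estimates were above 0 for 44 members, and in 21 all irradiated libraries were above all 5-FU libraries, an order found in 6.11% of all genes tested. TP53INP1, a p53-induced nuclear protein, was at 26.5, 26.4 and 24.2 TPM under 5-FU and at 31.9, 31.4 and 30 TPM with irradiation. The gap between the groups was small against its level, with a log2 fold change of 0.27 ± 0.05 (SE, edgeR adjusted p = 0.00518).

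CDKN1A (chr6:36676460-36687337, plus strand), which codes for p21, was at 676, 658 and 657 TPM under 5-FU and at 713, 741 and 768 TPM with irradiation. All irradiated libraries were above the others, but the log2 fold change of 0.15 ± 0.06 (SE, edgeR adjusted p = 0.429) did not pass the test. MDM2 (chr12:68808177-68845544, plus strand), a ubiquitin ligase, was at 193, 188 and 179 TPM against 202, 235 and 196 TPM (log2 fold change 0.17, edgeR adjusted p = 0.102). RRM2B (0.19), CCNG1 (0.19), TP53I3 (0.18) and BTG2 (0.14) had estimates of the same size and did not pass, and BAX (0.01), DDB2 (0.00) and GDF15 (0.10) lay near 0. E2F7, a p53-induced repressor of the cell cycle that E2F also induces, had the lowest estimate, with 5.87, 5.95 and 5.6 TPM against 4.41, 4.47 and 4.46 TPM (−0.27, edgeR adjusted p = 0.0321).

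The other gene that rose was KRCC1 (chr2:88027205-88064252, minus strand), a lysine-rich coiled-coil gene on no list. Its TPM was 3.06, 3.2 and 2.86 under 5-FU and 4.53, 4.17 and 4.24 with irradiation, a log2 fold change of 0.49 ± 0.09 (SE, edgeR adjusted p = 0.00285). The irradiated libraries were between those with 5-FU alone and those under uracil, which were at 5.73, 5.56 and 6.13 TPM. The calls of both KRCC1 and TP53INP1 depended on which libraries were included. Each was lost without 5-FU replicate 1 or 3 and without irradiated replicate 1 or 2, with log2 fold changes that stayed between 0.45 and 0.51 for KRCC1 and between 0.24 and 0.28 for TP53INP1. KRCC1 also lost its call with only the 6 compared libraries and with only the 9 sensitive HCT-116 libraries, where TP53INP1 kept it.

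Other programmes that ionizing radiation or stress can induce showed almost no calls. Of 37 interferon-stimulated genes OAS3 fell (8.91, 8.04 and 8.5 TPM against 5.83, 7.57 and 6.97 TPM, log2 fold change −0.29) and 0 rose, with a median of −0.01. Of 29 ATF4-controlled genes of amino acid synthesis and stress PHGDH fell (31.5, 30.4 and 31.6 TPM against 21.7, 24.4 and 28.3 TPM, −0.32) and 0 rose, with a median of 0.00. In neither gene did the groups overlap. By edgeR 0 genes were called among 22 NF-kB targets, 27 immediate early genes, 32 genes of cholesterol and fatty acid synthesis, 25 hypoxia-induced genes, 30 ribosome biogenesis genes and 16 heat shock genes, and their medians lay between −0.04 and 0.08. Abundant members with overlapping libraries were the NF-kB target IER3 (315, 309 and 312 TPM against 358, 314 and 319 TPM), the lipid enzyme FASN (308, 263 and 270 TPM against 221, 258 and 273 TPM) and the nucleolar protein NPM1 (2863, 3044 and 3014 TPM against 2810, 2877 and 2939 TPM). In the remaining lists 0 genes were called either, namely 484 tested zinc finger genes named ZNF (median 0.00), 36 mitochondrially encoded genes (−0.04), 8 epithelial markers (0.03), and the 2, 4 and 4 tested markers of fibroblasts, leukocytes and endothelium. Of these markers COL1A1 was at 31.1, 26.3 and 29 TPM against 21.7, 26.2 and 23.8 TPM and CD68 at 8.24, 8.84 and 7.59 TPM against 12.7, 7.75 and 8.8 TPM, while PDGFRB, LYZ and VWF were at 0.336 TPM or less in every library. Over all genes, 736 had a higher and 1207 a lower estimate at an unadjusted p under 0.05.

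5-FU itself had moved the same lists further. Both comparisons share the 5-FU libraries, so their values are only given side by side. Against uracil, 5-FU alone lowered 54 of the 54 G2/M genes, with a median log2 fold change of −1.77, and 47 of the 48 replication genes, with a median of −1.25, where 24.4% of all genes tested fell. It raised 38 and lowered 3 of the p53 targets, with a median of 0.56, where 17.6% of all genes tested rose. MKI67 was at 72, 85.3 and 67.9 TPM under uracil, PLK1 at 123, 118 and 125 TPM, and CDKN1A at 229, 216 and 215 TPM. The log2 fold changes of 5-FU against uracil were −1.66 for MKI67, −2.05 for PLK1, −2.00 for CCNB1, −1.34 for TYMS and 1.60 for CDKN1A.

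Expressed relative to each gene's mean TPM under uracil, the median G2/M gene stood at 30.6, 29.9 and 28.9% in the 3 libraries with 5-FU and at 20.9, 19 and 19.3% with irradiation. The median replication gene stood at 45.1, 43.3 and 43.9% and then at 38.1, 33.4 and 35.5%. Neither pair of groups overlapped. The median p53 target stood at 157, 150 and 149% and then at 160, 158 and 162%.

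**Figure D4:**
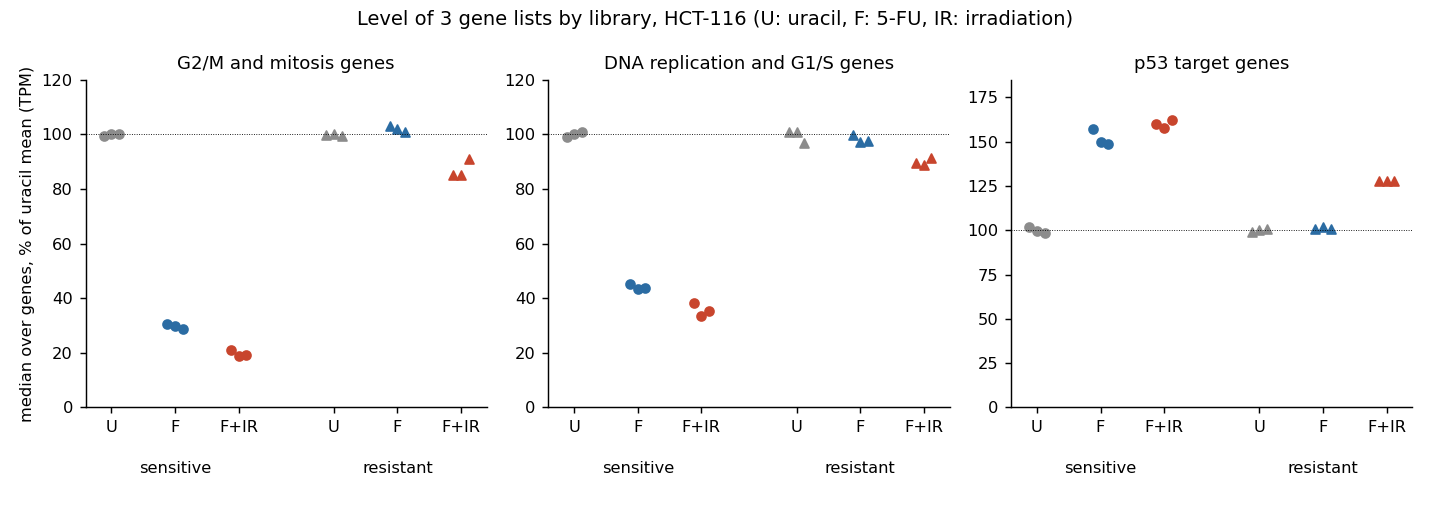
Median level of the G2/M, replication and p53 target lists in each library, as a percent of each gene's mean TPM under uracil in the same cells (y axis), under uracil, 5-FU and 5-FU plus irradiation (x axis). Circles are sensitive and triangles resistant HCT-116 libraries. The sensitive G2/M values drop to about 30% with 5-FU and to about 20% with irradiation, whereas the resistant values stay near 100% with 5-FU, and with irradiation G2/M values go down to 85 to 91% and p53 values up to 128%.

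Resistant HCT-116 cells gave a different balance of increases and decreases. With irradiation added to 5-FU, 390 genes rose (1.7%) and 203 fell (0.884%) in the resistant cells. Of the 54 G2/M genes 28 fell, with a median log2 fold change of −0.22, against 48 and −0.57 in sensitive cells, and of 47 p53 targets 31 rose, with a median of 0.31, against 1 and 0.10. PLK1 was at 154, 149 and 161 TPM in resistant cells with 5-FU and at 125, 120 and 141 TPM with irradiation, so its level after irradiation in resistant cells was above that of sensitive cells under either treatment. CDKN1A was at 159, 158 and 151 TPM and then at 250, 247 and 303 TPM, so that resistant cells with irradiation remained below sensitive cells with 5-FU alone.

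The difference between the responses of sensitive and resistant cells was tested as an interaction, and 38 genes passed in edgeR (0.165%), of which 38 were lower and 0 higher in sensitive cells. They included 10 of the G2/M genes (PLK1, KIF2C, KIF4A, KIF14, KIF20A, KIF23, TOP2A, UBE2C, ANLN and GTSE1), with lower fold changes in sensitive cells, and 5 p53 targets (CDKN1A, BTG2, FDXR, PLK2 and RPS27L), which rose in resistant cells. The difference in log2 fold change was −0.57 ± 0.08 (SE) for PLK1, with an edgeR adjusted p of 0.00285, and −0.64 ± 0.08 for CDKN1A, with an adjusted p of 0.00202. BTG2, an antiproliferative p53 target, went from 40.5, 40.8 and 41.1 TPM to 45.1, 44.7 and 46.9 TPM in sensitive cells and from 12.9, 13.1 and 12 TPM to 21.7, 20.5 and 20.6 TPM in resistant cells (difference −0.58). The widest difference was that of the semaphorin receptor PLXNB3, with 12, 10.8 and 9.26 TPM against 8.56, 12.8 and 12 TPM in sensitive cells, where the libraries overlapped, and a log2 fold change of 0.63 in resistant cells (difference −0.70). Over the lists the median difference was −0.34 for G2/M, −0.16 for replication and −0.21 for p53 targets, beside −0.031 for all genes. The count of 38 was fragile. It was 0 without any 1 of the 3 sensitive 5-FU libraries or without sensitive irradiated replicate 2, 1 without irradiated replicate 3 and 27 without irradiated replicate 1.

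Among the 211 genes that fell in sensitive cells, 83 also fell in resistant HCT-116 cells, 0 rose, and 210 had an estimate below 0, with a median of −0.19. Over all 22975 genes, 10602 had an estimate below 0 in the resistant cells, with a median of 0.02. No library is shared between these comparisons, although both were fitted in 1 model.

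In the other sensitive lines 0 of the mitotic genes fell by edgeR. In a fit of the 27 sensitive libraries, 22 genes rose (0.0868%) and 16 fell (0.0631%) in DLD-1, and in HT-29 edgeR called 0 genes (0%), with 1034 of 25337 genes at an unadjusted p under 0.05. Of the 54 G2/M genes 3 rose in DLD-1, namely CDK1 (0.41), TOP2A (0.31) and UBE2C (0.29), and 0 fell, with a median of 0.03, and in HT-29 the median was −0.03. PLK1 was at 124, 125 and 124 TPM in DLD-1 with 5-FU and at 130, 127 and 130 TPM with irradiation, and in HT-29 at 83.6, 82.3 and 80.9 TPM and then at 84.6, 86.7 and 78.1 TPM. Of the 211 genes, 94 had an estimate below 0 in DLD-1, with a median of 0.01, where 11474 of the 22612 genes tested in both fits were below 0. In HT-29 179 of the 211 were below 0, with a median of −0.03, and so were 13931 of the 22612, with a median of −0.02.

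The response of HCT-116 minus that of DLD-1 differed in 170 genes on the lower side (0.671%) and 3 on the higher side (0.0118%). The response minus that of HT-29 differed in 139 genes on the lower side (0.549%) and 1 on the higher side (0.00395%). The lower genes included 49 of the G2/M genes against DLD-1, with a median difference of −0.61, and 44 against HT-29, with a median of −0.54. The replication genes numbered 7 (median −0.22) and 14 (median −0.25). For PLK1 the difference was −0.81 ± 0.07 (SE, edgeR adjusted p = 6.51e-09) against DLD-1 and −0.79 ± 0.07 (SE, edgeR adjusted p = 2.55e-08) against HT-29. TOP2A, the topoisomerase that untangles chromosomes, went from 25.6, 26.3 and 24.2 TPM to 17.8, 16.9 and 17.1 TPM in HCT-116 and from 201, 198 and 195 TPM to 248, 249 and 254 TPM in DLD-1, a difference of −0.87 ± 0.06 (SE, edgeR adjusted p = 1.38e-10). The groups did not overlap in either line and lay in opposite orders. Of the p53 targets 0 differed between HCT-116 and either line at that threshold, with median differences of 0.11 and 0.12. The doses differed between the lines, so line and dose cannot be told apart.

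**Figure D5:**
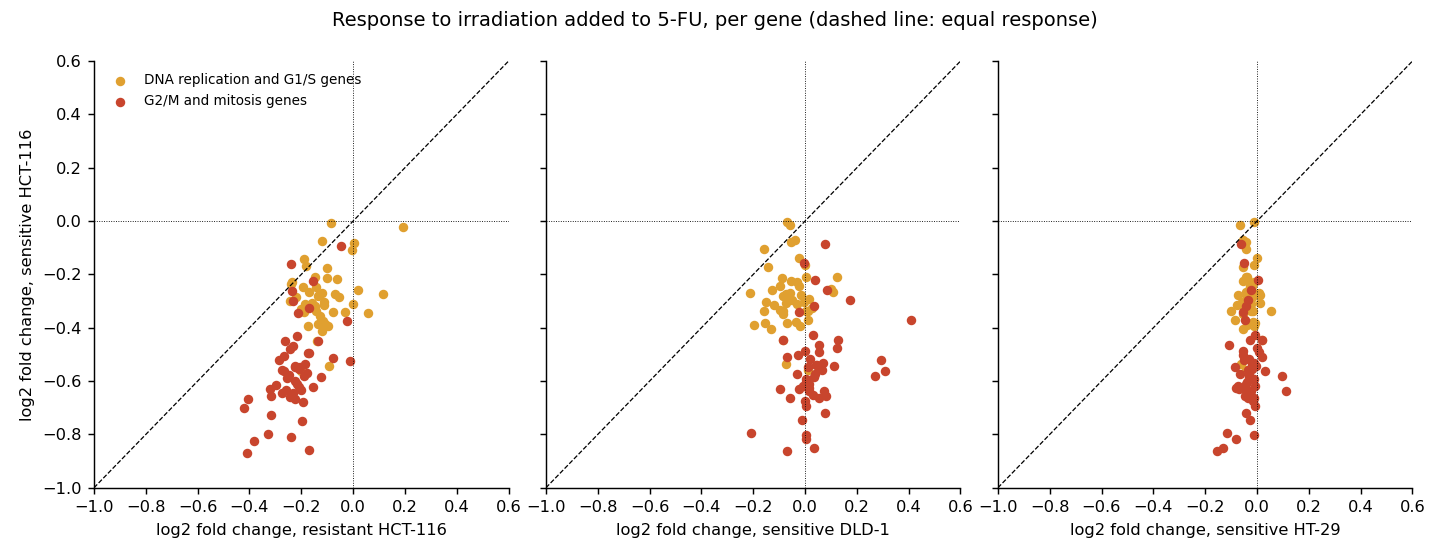
Log2 fold change for irradiation added to 5-FU in sensitive HCT-116 (y axis) against the same in resistant HCT-116, sensitive DLD-1 and sensitive HT-29 (x axis, 1 panel each). Each point is a gene of the G2/M or the replication list, and the dashed line marks equal values. Points lie below the line for nearly all G2/M genes in each panel. Along the x axis they lie between the line and 0 in resistant HCT-116 and around 0 in DLD-1 and HT-29.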

How the data were processed

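RNA of 3 colorectal cancer lines, sensitive or resistant to 5-FU, was sequenced as poly(A)-selected, directional, paired libraries, with 3 replicates per condition. Per the paper's methods and the submitters' processing notes, the authors used bcl2fastq, Trimmomatic 0.36, FastQC 0.11.8 and kallisto 0.44.0 on Ensembl 98 transcripts (GRCh38.p13). The authors deposited estimated counts, which are not normalized, and TPM, which kallisto corrects for length and depth, both per transcript and summed over 59368 gene names. The labels gave every group and replicate number. In 9 of 9 sensitive HCT-116 libraries the gene total equalled the transcript sum. No pair of replicates agreed within sampling noise, so none was merged.

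Estimated counts were rounded to integers. Genes kept by filterByExpr were tested with edgeR 4.0.16 (R 4.3.3), a quasi-likelihood test with TMM scaling, on the 18 HCT-116 libraries in 6 groups (12 residual degrees of freedom), which share 1 estimate of the spread. Genes were called where the p adjusted by Benjamini-Hochberg was 0.01 or less, with no fold threshold. Differences between lines were fitted on the 27 sensitive libraries in 9 groups. DESeq2 1.42.0 was an alternative, as were RLE scaling, library size alone, no filter, only the compared libraries, the sensitive libraries alone, the replicate number as a block, an adjusted p of 0.05, a 2-fold threshold and each replicate left out in turn. The scripts (Python 3.11.15, pandas 2.3.3, numpy 2.4.6) were tested on simulated counts. The labels number the replicates, the paper calls them biological triplicates, and p-values measure the spread between these libraries, which may be partly technical.

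Lists were described by counts and medians, without a set test. The members and lists were chosen with earlier results of these data known. Named genes were taken from the 15 called genes with the largest change in each direction among those with a mean of at least 1 TPM, the 6 called members of each list with the smallest p or, where none was called, the 2 most abundant, the 5 called genes with the smallest p, the 5 called genes with the largest difference between responses, and CDKN1A, MDM2, CCNB1 and TYMS. Some measured genes are not reported here. Genes named as examples of families or lists beyond these were picked after their values were seen. Coordinates are those of GENCODE 44 (GRCh38), and promoter sequences those of RefSeq.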

Additional observations from a re-analysis of the deposited data

Results flagged for a closer look

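Responses to irradiation added to 5-FU were compared between cells by the test of the difference itself. Between sensitive and resistant HCT-116 cells 38 genes differed in edgeR, a count that was 0 to 27 when a sensitive 5-FU or irradiated library was left out. The genes with the widest differences in log2 fold change were PLXNB3 (−0.70), CDKN1A (−0.64), BTG2 (−0.58), CDCA8 (−0.58) and PLK1 (−0.57). For PLXNB3, CDKN1A and BTG2 the resistant cells rose and the sensitive estimates did not pass, while PLK1 fell in both and CDCA8 fell in sensitive cells.

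Between sensitive HCT-116 and sensitive DLD-1 cells 173 genes differed. The differences were −0.98 for AC099850.3, −0.89 for PIF1, −0.87 for TOP2A, −0.85 for CENPK and −0.85 for HMMR on the lower side, and 0.37 for RSAD1, 0.35 for HOXB8 and 0.27 for ZFP36L1 on the higher side. In RSAD1 and HOXB8 the HCT-116 libraries with and without irradiation overlapped, and DLD-1 fell by 0.31 in each.

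Between sensitive HCT-116 and sensitive HT-29 cells 140 genes differed. The differences were −0.95 for MKI67, −0.80 for AC099850.3, −0.79 for PLK1, −0.75 for SGO1 and −0.74 for KIF14. The only gene on the higher side was AC011511.4, with a fitted difference of 9.90. This value rests on 3 HT-29 libraries at or near 0 with irradiation, after 0.522, 0.231 and 0.343 TPM with 5-FU alone, and depends on how the fit treats counts near 0. In HCT-116 the same gene was at 0.426, 0.247 and 0.469 TPM with 5-FU and at 2.11, 1.7 and 0.26 TPM with irradiation, and the libraries overlapped. Groups of 3 libraries were not searched for outlying samples.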

How the results depend on the processing

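The count of 211 genes that fell was 200 with RLE scaling, 207 with library size alone, 164 with the 6 compared libraries alone, 193 with the 9 sensitive libraries, 261 with DESeq2 (all 211 among them), 268 at an adjusted p of 0.05 and 364 without the filter on low counts, and it ranged from 153 to 234 when 1 library was left out. With a 2-fold threshold 0 genes fell and 0 rose in edgeR, where 1943 genes had an unadjusted p under 0.05. The 2 genes that rose became 6 at an adjusted p of 0.05, 32 without the filter, 5 with the 9 sensitive libraries (KRCC1 not among them), 5 with DESeq2 and 0 to 3 with 1 library left out. The 38 genes that differed between sensitive and resistant cells became 187 at an adjusted p of 0.05, 58 with library size alone and 318 without the filter, and ranged from 0 to 27 with 1 library left out. In the settings with 0 calls by edgeR, 2263 to 3008 genes still had an unadjusted p under 0.05. The difference from DLD-1 (173 genes) became 268 without the filter and 145 to 184 with 1 library left out, and that from HT-29 (140 genes) became 224 and 105 to 154. The lower replication genes (31) ranged from 17 to 36, the lower G2/M genes (48) from 44 to 50, and the p53 targets that rose (1) from 0 to 1. No result changed direction. Of 36 called genes named by rule, 28 kept their call under every alternative scaling, filter, tool, set of libraries and block, though none passed the 2-fold threshold. TYMS lost it in 2 settings, PHGDH in 3, OAS3 in 2, CDKN2C in 1 and RIBC2 in 1. The causes were not tested.

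The replicate numbers did not pair the libraries, since the correlations of same-numbered deviations were −0.0444, −0.0453 and 0.0215. With the replicate block 195 genes fell, 192 of them among the 211, 47 of the G2/M, 28 of the replication and 12 of the repair genes fell, and the differences numbered 2 against resistant cells, 172 against DLD-1 and 138 against HT-29. The median SE of a log2 fold change over all genes was 0.11, which limits what could be called with these libraries.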
